A study of Mus musculus with 16 samples.

Results

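Whole mouse embryos that carried extra copies of *Kat6b*, and both normal copies of *Kat6a*, were compared with wild-type littermates and other wild-type embryos at embryonic day 9.5 (E9.5). The members were chosen by genotype label alone: 4 *Kat6a+/+Tg(Kat6b)* embryos, called transgenic here, and 4 *Kat6a+/+Kat6b+/+* embryos, called wild type, together 8 of the 16 embryos of the study. The other 8 embryos lacked *Kat6a*, 4 of them with the transgene and 4 without, and entered the statistical fit so that all 16 embryos shared an estimate of the spread. The transgene is a bacterial artificial chromosome that holds the complete *Kat6b* gene with its own flanking sequence. Several copies were inserted into the genome of 1 founder line, and the mice were kept on a mixed FVB and BALB/c background, so that any effect of the insertion site is shared by all transgenic embryos and cannot be told apart from that of *Kat6b*. Each library was made from the total RNA of 1 whole embryo, so fewer cells of a type and less RNA per cell cannot be told apart.

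Transgenic replicates 1 to 3 came from litter 2597 and replicate 4 from litter 2598. Wild-type replicates 3 and 4 were their littermates from litters 2597 and 2598, whereas wild-type replicates 1 and 2 came from litters 801 and 803. Both genotypes held 2 males and 2 females, but the 2 wild-type males were those of litters 801 and 803 and the 2 wild-type females those of litters 2597 and 2598, so among wild-type embryos sex and litter cannot be told apart. Total counts per library ran from 14407277 to 24029187 in these 8 embryos, with wild-type replicate 4 the shallowest, and no pair of replicates was alike enough to be 1 library deposited again (chi-square per degree of freedom at least 4.38). The sex labels matched the data in all 16 embryos: *Xist* lay between 769 and 1210 CPM (counts scaled to a common library size) in females and at 0.825 CPM or less in males, and 4 Y-linked genes summed to at most 0.938 CPM in females and at least 202 CPM in males. The *Kat6a* null allele lacks internal exons, and counts over the whole gene, 184 to 218 CPM in the 8 embryos labelled Kat6a-/-, do not check that genotype.

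KAT6B is a histone acetyltransferase of the MYST family. With its paralogue KAT6A it takes turns as the catalytic subunit of a complex with a BRPF protein, ING4 or ING5 and MEAF6, which acetylates the tail of histone H3, and the winged helix domains of the KAT6 proteins bind unmethylated CG-rich DNA. The complex is best known in the embryo for keeping homeobox genes of the *Hox* clusters active along the body axis, and human mutations in KAT6B cause disorders of the brain, face and skeleton.

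The promoters of the overexpressed gene and of 3 genes whose levels differed between the genotypes are shown as 300 bases around a RefSeq transcription start, read 5′ to 3′ on the gene's strand, with each CG dinucleotide in capitals because CG-rich DNA is what the KAT6 winged helices recognise. The sequences were taken from RefSeq (GRCm38.p6 table) and each matched the GRCm39 genome exactly once. *Kat6b* lies on the plus strand at chr14:21549588-21549887 inside the annotated gene, *Cdx2* on the minus strand at chr5:147244010-147244309, *T* on the plus strand at chr17:8653005-8653304 and *Nes* on the plus strand at chr3:87878150-87878449.
Kat6b: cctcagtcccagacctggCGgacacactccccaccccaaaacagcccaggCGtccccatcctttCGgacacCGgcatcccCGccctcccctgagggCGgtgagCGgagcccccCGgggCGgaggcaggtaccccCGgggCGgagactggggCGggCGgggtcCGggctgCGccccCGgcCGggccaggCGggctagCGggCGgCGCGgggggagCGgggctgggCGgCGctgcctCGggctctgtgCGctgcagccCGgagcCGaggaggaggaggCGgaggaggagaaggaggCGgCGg
Cdx2: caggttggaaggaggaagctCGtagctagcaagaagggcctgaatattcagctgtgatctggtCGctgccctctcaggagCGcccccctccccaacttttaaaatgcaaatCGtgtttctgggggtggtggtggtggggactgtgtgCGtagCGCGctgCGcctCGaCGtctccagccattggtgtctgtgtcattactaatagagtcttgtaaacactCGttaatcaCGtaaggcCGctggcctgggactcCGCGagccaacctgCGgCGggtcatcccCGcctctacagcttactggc
T: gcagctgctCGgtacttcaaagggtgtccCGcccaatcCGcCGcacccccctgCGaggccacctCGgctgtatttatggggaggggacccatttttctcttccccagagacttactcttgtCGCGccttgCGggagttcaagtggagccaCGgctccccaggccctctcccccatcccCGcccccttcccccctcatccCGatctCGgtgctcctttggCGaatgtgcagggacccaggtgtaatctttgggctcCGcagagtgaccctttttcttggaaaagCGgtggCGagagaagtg
Nes: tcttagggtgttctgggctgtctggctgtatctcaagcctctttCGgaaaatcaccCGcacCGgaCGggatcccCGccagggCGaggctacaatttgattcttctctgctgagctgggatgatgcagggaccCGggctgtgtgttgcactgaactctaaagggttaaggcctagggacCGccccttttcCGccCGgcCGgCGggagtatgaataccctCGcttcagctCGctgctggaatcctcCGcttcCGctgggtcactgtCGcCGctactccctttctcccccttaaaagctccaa
The *Kat6b* promoter held 32 CG dinucleotides, and 17.7% of the promoters of 12228 tested genes held as many or more. The promoters of *Cdx2* and *Nes* held 18 each and that of *T* held 17, near the median of 20 over all tested genes. Of the 22 genes called below, 13 had a promoter in the table, with a median of 17 CG dinucleotides over the 5 that rose and 27.5 over the 8 that fell.

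*Kat6b* mRNA was about 4 times as abundant in transgenic as in wild-type embryos, while *Kat6a* was not called. *Kat6b* (Entrez Gene 54169) stood at 47.1, 42.6, 46.9 and 48.2 CPM in wild-type replicates 1 to 4 and at 155, 198, 188 and 227.2 CPM in transgenic replicates 1 to 4, with no overlap between the groups. The mean rose from 46.2 ± 2.45 to 192 ± 29.7 CPM (SD, n = 4 each), a 4.06-fold difference (log2 fold change 2.02 ± 0.07 SE, FDR = 1.01e-09, edgeR quasi-likelihood test). Every transgenic embryo was thus more than 3 times above every wild-type embryo, and transgenic replicate 1 was the lowest of the 4. *Kat6a* (Entrez Gene 244349) stood at 211, 176, 211 and 199 CPM in wild-type and 138, 189, 192 and 196 CPM in transgenic embryos. Transgenic replicate 1 was apart from the rest, the other embryos overlapped, and the log2 fold change of -0.19 ± 0.08 SE did not pass the test (FDR = 0.361).

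Scaled to the deposited gene lengths, *Kat6a* was the more abundant paralogue in every wild-type embryo and *Kat6b* in every transgenic embryo, whereas in CPM, which are not scaled to length, *Kat6a* was above *Kat6b* in transgenic replicate 3. Per kilobase, *Kat6a* was at 21.9 ± 1.81 and *Kat6b* at 5.91 ± 0.313 RPKM (reads per kilobase of gene length at a common library size) in wild-type embryos, against 19.6 ± 2.99 and 24.5 ± 3.79 RPKM in transgenic embryos (SD, n = 4 each). The ratio of *Kat6b* to *Kat6a* was 0.26, 0.282, 0.259 and 0.282 in the wild-type and 1.31, 1.22, 1.14 and 1.35 in the transgenic embryos. No ratio of the wild type reached the transgenic range, and an exact two-sided permutation test gave p = 0.0286, which 4 embryos a group cannot go below. The other 6 subunits tested were within 0.1 of no difference on the log2 scale, from *Brpf3* at -0.07 ± 0.05 to *Ing5* at 0.10 ± 0.05, and none passed the test over all genes.

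**Figure D1:**
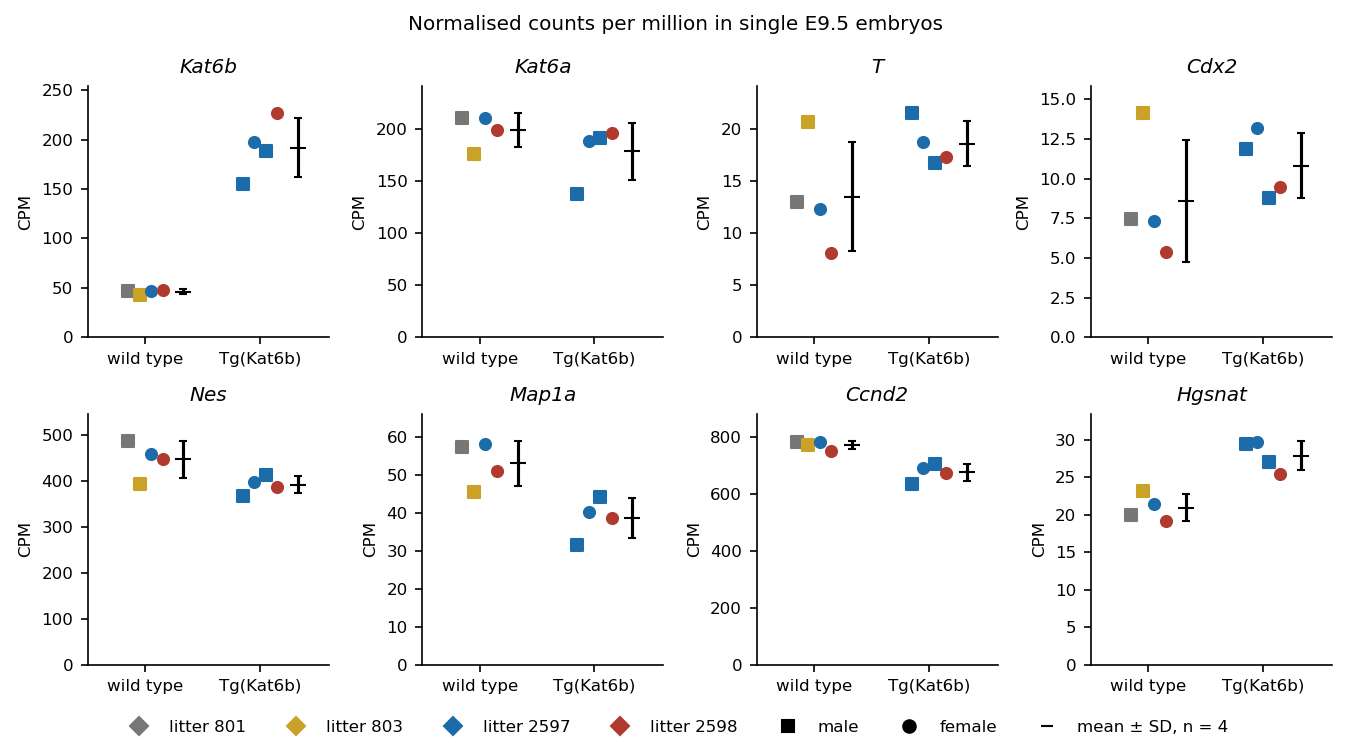
Normalised CPM of 8 genes (y axes, linear, from 0) in single embryos by genotype (x axis), with colour for litter, shape for sex and bars for mean ± SD, n = 4. *Kat6b* lies between 42.6 and 48.2 CPM in the wild type and between 155 and 227.2 CPM in transgenic embryos, whereas *T* and *Cdx2* overlap through wild-type replicate 2 of litter 803.

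Beyond *Kat6b*, few genes passed the test and most differences were small. Of 15679 genes tested, 22 were called at an FDR under 0.05 (0.14%), 9 higher (0.0574%) and 13 lower (0.0829%) in transgenic embryos, and 1805 genes (11.5%) had an unadjusted p under 0.05. Only *Kat6b*, *Dusp29* and *Masp2* differed by more than 2-fold, and the median absolute log2 fold change of the 22 was 0.38. The CPM of the 2 genotypes did not overlap for 15 of the 22, against 4% of all tested genes, where both figures come from the contrast that made the calls. The calls depended on single libraries. The fit called 1 gene without wild-type replicate 1, 14 without replicate 2, 6 without replicate 3 and 108 without replicate 4, and 8, 48, 5 and 9 genes without transgenic replicates 1 to 4. Of the original 22 these fits called 1, 13, 3, 19, 7, 20, 4 and 6 respectively. *Kat6b* was called in all 8 of these fits and *Dusp29* in 7, being lost without wild-type replicate 1. Without the surrogate variables, which take up variation shared by many genes, the test called 5 genes: *Kat6b*, *Dusp29*, *Kbtbd11*, *Nrip1* and *Adgrl1*.

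*Nes* was the one member of the neural progenitor list that edgeR called, while 15 of the 20 tested members had a log2 fold change above 0, and DESeq2, which called 1.4% of all genes, also called *Gli3* and *Notch1* lower. *Nes* (Entrez Gene 18008), which encodes the intermediate filament nestin of neural progenitors, stood at 487, 392, 458 and 447 CPM in wild-type and 367, 398, 412 and 387 CPM in transgenic embryos. Wild-type replicate 2 lay within the transgenic range and the other wild-type embryos above it, and *Nes* fell by 13.6% (log2 fold change -0.21 ± 0.04 SE, FDR = 0.0298). *Map1a*, which encodes a microtubule-associated protein of neurons, stood at 57.4, 45.5, 58.1 and 51.1 CPM in wild-type and 31.4, 40.3, 44.1 and 38.7 CPM in transgenic embryos. These groups did not overlap though wild-type replicate 2 came close to the highest transgenic embryo, and *Map1a* fell by 29.4% (log2 fold change -0.50 ± 0.07 SE, FDR = 0.00981). *Onecut2*, a cut homeobox transcription factor of neurons and liver, stood at 25.4, 14.7, 23.5 and 21.6 CPM against 9.42, 12.6, 17.2 and 14.1 CPM, and its log2 fold change was -0.75 ± 0.13 SE (FDR = 0.0298). Here wild-type replicate 2 lay below transgenic replicate 3.

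*Nefm*, *Adgrl1* and *Nova2* were called by the test over all genes, and edgeR called no gene of the early neuron list. *Nefm*, which encodes the medium neurofilament chain, stood at 50.8, 32.8, 57.5 and 58.3 CPM in wild-type and 36.5, 38.2, 49.2 and 43.7 CPM in transgenic embryos, so that wild-type replicate 2 was the lowest of all 8. Its log2 fold change of -0.32 ± 0.06 SE (FDR = 0.0298) stayed called in 1 of the 8 fits that left out an embryo, the fit without transgenic replicate 2. *Adgrl1*, a latrophilin of synapses, stood at 126, 125, 118 and 120 CPM against 98.0, 109, 109 and 93.9 CPM, without overlap (log2 fold change -0.25 ± 0.04 SE, FDR = 0.0153). *Nova2*, a splicing regulator of neurons, had a log2 fold change of -0.30 ± 0.06 SE (FDR = 0.0298). With offsets for gene length, described below, *Adgrl1* stood at -0.13 (FDR = 0.222) and *Nova2* at -0.19 (FDR = 0.156), and neither was called. In GENCODE, exons of genes on the opposite strand cover 38.2% of the exon bases of *Nefm* and 15.4% of those of *Adgrl1*. These are not the counted exons: *Nefm* has 5942 exon bases there and a deposited length of 3230. The library kit does not keep the strand, so reads of such partners cannot be told apart where they overlap counted exons.

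The other genes that fell include a cyclin, a corepressor and proteins of the cell skeleton. *Ccnd2*, the D-type cyclin that drives entry into the cell cycle in progenitors, stood at 782, 770, 781 and 751 CPM in wild-type and 635, 689, 703 and 673 CPM in transgenic embryos. The groups did not overlap and *Ccnd2* fell by 12.7% (log2 fold change -0.20 ± 0.04 SE, FDR = 0.0268), though opposite-strand exons cover 15.8% of its exon bases. *Nrip1*, a corepressor of nuclear receptors, fell by 19.99% from 109 ± 4.98 to 87.1 ± 7.06 CPM (SD, n = 4 each, FDR = 0.0109), also without overlap. *Nrk*, an X-linked kinase, stood at 15.4, 10.9, 15.9 and 13.2 CPM against 7.44, 10.4, 9.11 and 10.0 CPM (log2 fold change -0.64 ± 0.11 SE, FDR = 0.0153). *Plec*, encoding the cytolinker plectin, *Cplane1*, encoding a ciliary protein, *Med13l*, encoding a subunit of the Mediator kinase module, and *Diaph1*, encoding a formin, had log2 fold changes of -0.40, -0.36, -0.27 and -0.21, with FDR between 0.0298 and 0.0362. With length offsets *Plec* stood at -0.05, *Cplane1* at -0.18 and *Med13l* at -0.12 and none of these was called, while *Diaph1* stayed called at -0.16 (FDR = 0.0416).

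Among genes that rose, *T* and *Cdx2* stand at the posterior end of the embryo, where the body axis is extended from the tail bud. *T* (Entrez Gene 20997, on chromosome 17), which encodes the T-box factor brachyury of early mesoderm, stood at 12.9, 20.7, 12.3 and 8.03 CPM in wild-type and 21.5, 18.8, 16.7 and 17.3 CPM in transgenic embryos. *Cdx2* (Entrez Gene 12591, on chromosome 5), a caudal homeobox factor, stood at 7.44, 14.1, 7.32 and 5.35 CPM against 11.9, 13.2, 8.78 and 9.47 CPM. For both genes 3 wild-type embryos were below every transgenic embryo and wild-type replicate 2 was within or above the transgenic range. The log2 fold changes were 0.59 ± 0.11 SE for *T* and 0.51 ± 0.10 SE for *Cdx2* (FDR = 0.0423 for both). An exact permutation test of the CPM themselves, with no surrogate variable, gave p = 0.114 for *T* and p = 0.343 for *Cdx2* (two-sided). Of the 8 fits that left out an embryo, only the fit without wild-type replicate 2 called *T* and none called *Cdx2*. DESeq2 called both and limma-voom *T*, edgeR with the size factors of DESeq2 gave FDR = 0.0478 for *T* and 0.0501 for *Cdx2*, and without surrogate variables *T* stood at 0.46 (FDR = 0.62) and *Cdx2* at 0.33 (FDR = 0.857).

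Of 24 tested genes of axial elongation, *T* and *Cdx2* were called higher and none lower, where 0.14% of all genes were called. Of the list 18 had a log2 fold change above 0, as had 50.8% of all genes, with a median of 0.14 against 0.00 over all genes. *Cdx4*, a paralogue of *Cdx2*, stood at 0.55 ± 0.18 SE, *Nkx1-2* at 0.43 ± 0.14 and *Tbx6* at 0.35 ± 0.11 SE, with FDR of 0.211 to 0.214. The list ran from *Hes7* at -0.17 (FDR = 0.922) to *Msgn1* at 0.67 (FDR = 0.497), and neither passed the test. The summed level of the list was 1071 to 1318 CPM in wild-type and 1167 to 1225 CPM in transgenic embryos, within the wild-type range.

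The *Hox* genes showed a small difference in 1 direction across all 4 clusters. Their products set the identity of segments along the body axis, and paralog group 1 is expressed farthest forward and group 13 farthest back. The 38 tested *Hox* genes summed to 822, 867, 859 and 831 CPM in wild-type replicates 1 to 4 and to 937, 967, 968 and 947 CPM in transgenic replicates 1 to 4. Each transgenic embryo was above each wild-type embryo, and the mean was 13% higher, at 955 ± 15.3 against 845 ± 21.8 CPM (SD, n = 4 each). All 38 had a log2 fold change above 0, as had 50.8% of all tested genes, with a median of 0.18 and a range from 0.01 for *Hoxa2* to 0.41 for *Hoxd1*. No *Hox* gene was called by the edgeR test, while 18 had an unadjusted p under 0.05, against 11.5% of all tested genes. limma-voom likewise called none (0.115% of all genes were called by it). DESeq2, which called 1.4% of all genes, called *Hoxa10*, *Hoxb1*, *Hoxb3*, *Hoxb9* and *Hoxd4*.

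*Hoxd4*, named after its values were seen as the member with the smallest p, stood at 47.9, 54.6, 65.0 and 62.4 CPM in wild-type and 65.3, 73.3, 76.5 and 68.9 CPM in transgenic embryos. Transgenic replicate 1 was just above wild-type replicate 3, and the groups did not overlap. Its log2 fold change was 0.29 ± 0.06 SE (FDR = 0.0613), that of *Hoxa10* 0.33 ± 0.07 (FDR = 0.0785) and that of *Hoxb1* 0.30 ± 0.07 (FDR = 0.101). The genotypes did not overlap for 9 of the 38 genes, against 4% of all tested genes. Along the axis the summed level was 12.8% higher for paralog groups 1 to 3, 14.5% for groups 4 and 5, 12% for groups 6 to 8, 12.1% for groups 9 and 10 and 15% for groups 11 to 13. Only in the last of these sums did wild-type and transgenic embryos overlap, at 39.5 to 48.2 against 48.0 to 55.6 CPM. Within litters 2597 and 2598 alone, 37 of 38 had a log2 fold change above 0 (median 0.16), and with offsets for gene length 36 of 38 did (median 0.14). Leaving out any 1 of the 8 embryos kept the median between 0.16 and 0.20. In embryos without KAT6A, the transgene's difference was above 0 for 37 of 38 *Hox* genes (median 0.31), against 48.6% of all genes, and 19 were called higher, against 3.39% of all genes. Litter and transgene cannot be told apart there.

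**Figure D2:**
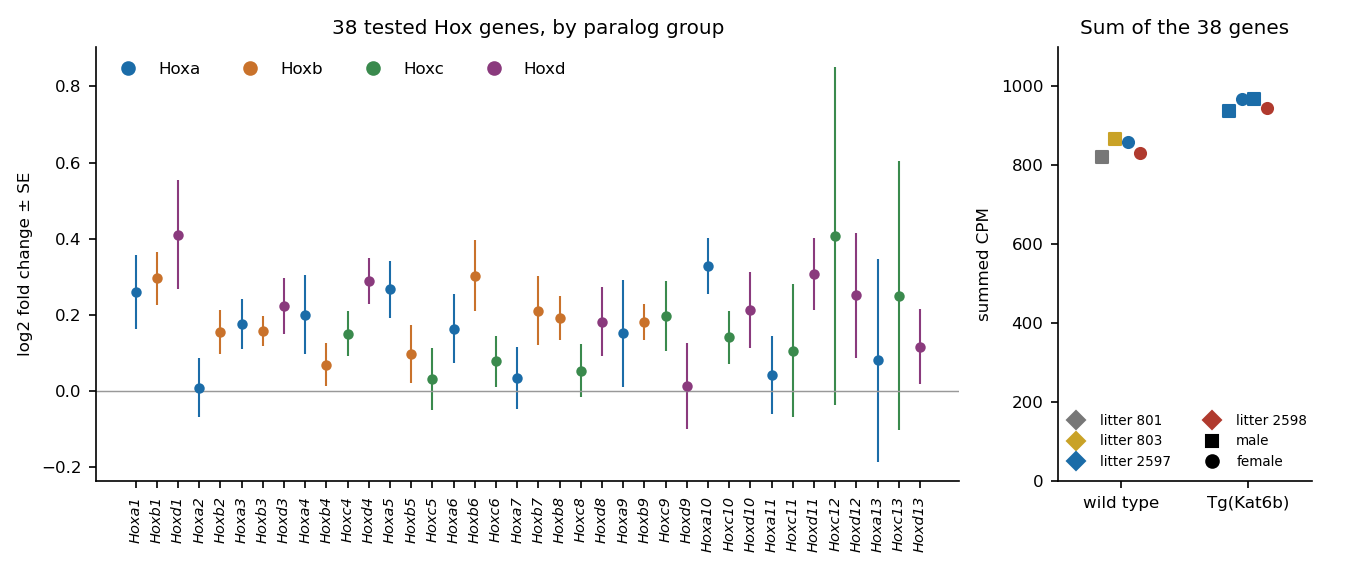
Left, log2 fold change ± SE of the 38 tested *Hox* genes (y axis) in order of paralog group (x axis), coloured by cluster. Right, summed CPM of the same genes (y axis, from 0) in single embryos by genotype, coloured by litter, where the transgenic embryos lie between 937 and 968 and the wild-type embryos between 822 and 867.

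The other lists of developmental genes held few called genes. Over all tested genes 11.5% had an unadjusted p under 0.05, and DESeq2 called 1.4%. Among 20 regulators of brain regions, 19 had a log2 fold change above 0 (median 0.13) and none was called by edgeR, limma-voom or DESeq2, with 5 at an unadjusted p under 0.05, from *Pax5* at -0.07 to *En1* at 0.31 ± 0.09 SE (FDR = 0.155). Of 20 neural progenitor genes, *Nes* was called by edgeR and limma-voom, *Gli3*, *Notch1* and *Nes* by DESeq2, and 15 were above 0 (median 0.05), from *Notch1* at -0.29 to *Hes5* at 0.17. Of 23 genes of early neurons none was called by edgeR or limma-voom, 7 had an unadjusted p under 0.05, DESeq2 called *Dcx* and *Ebf1*, and the values ran from *Dcx*, encoding doublecortin, at -0.44 ± 0.10 SE (FDR = 0.123) to *Lhx5* at 0.37. The summed level of early neuron genes overlapped widely, at 438 to 622 CPM in wild-type and 473 to 636 CPM in transgenic embryos, and its part in the result for the neural genes was not tested. Of 12 *Tbx* genes only *T* was called, with *Mga* lowest at -0.37 and *Tbx22* highest at 0.63. None of 6 *Dlx* genes was called by edgeR, DESeq2 or limma-voom, with 3 at an unadjusted p under 0.05 and values from -0.05 for *Dlx6* to 0.28 for *Dlx1*.

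The lists of chromatin and cell cycle genes other than the KAT6 complex held 1 gene, *Ccnd2*, that edgeR called. The shares over all tested genes were 11.5% at an unadjusted p under 0.05 and 1.4% called by DESeq2. None of 26 acetyltransferases and deacetylases was called by edgeR or limma-voom, 3 had an unadjusted p under 0.05 and DESeq2 called *Crebbp* and *Ep300*, with *Crebbp* lowest at -0.35 ± 0.10 SE (FDR = 0.206) and *Kat2b* highest at 0.17. Of 33 Polycomb and trithorax genes none was called by edgeR or limma-voom, 7 had an unadjusted p under 0.05 and DESeq2 called *Kmt2a*, *Kmt2d* and *Pcgf6*, from *Kmt2a* at -0.53 to *Cbx8* at 0.33. With offsets for gene length *Kmt2a* stood at -0.22 and *Crebbp* at -0.26. Of 22 cyclins and other cell cycle genes *Ccnd2* fell, and *Cdk6*, the kinase that D-type cyclins activate, was lowest at -0.36 ± 0.08 SE (FDR = 0.101), called by DESeq2 and at -0.13 with length offsets. Of 19 cell cycle inhibitors and p53 targets none was called by edgeR or limma-voom and 3 had an unadjusted p under 0.05. DESeq2 called *Pmaip1*, at 0.46 ± 0.11 SE, and with length offsets edgeR called the imprinted inhibitor *Cdkn1c* at -0.17 (FDR = 0.0187), which stood at -0.12 (FDR = 0.222) without them.

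Marker lists of tissues gave no call in edgeR for the heart, endothelium, primitive erythroid cells, blood stem cells, macrophages, liver bud, decidua and placenta, neural crest, somites or craniofacial regulators, with 17 of their 152 tested members together at an unadjusted p under 0.05 (11.2%, against 11.5% of all genes). DESeq2, which called 1.4% of all genes, called *Ryr2* of the heart list and *Tfap2a* of the neural crest list, and limma-voom none. The heart list summed to 1310 to 1371 CPM in wild-type and 904 to 1524 CPM in transgenic embryos, and the erythroid list to 3961 to 6135 against 5336 to 6646 CPM. Of 20 markers of decidua and placenta 7 were tested, and the trophoblast genes *Prl8a2*, *Prl7d1*, *Tpbpa*, *Cts7* and *Ctsj* had no count in any of the 8 embryos. The 24 genes of cholesterol synthesis had a median log2 fold change of -0.26, with 23 below 0 and none called by edgeR, DESeq2 or limma-voom (6 at an unadjusted p under 0.05). Within litters their median was 0.00, and wild-type embryos ranged from 2117 to 3416 CPM against 2106 to 2181 CPM in transgenic embryos. Lists of stress, hypoxia, retinoic acid, mitochondrial, histone and ribosomal protein genes held no called member in edgeR, DESeq2 or limma-voom, with 14 of 150 at an unadjusted p under 0.05 (9.33%).

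Next to the *Kat6b* gene, its nearest neighbour also rose. Of 23 tested genes within 1 Mb of *Kat6b* on chromosome 14, *Kat6b* itself and *Dusp29* were called, against 0.14% of all genes. With *Usp54*, at -0.13 (FDR = 0.362), 3 of the 23 had an unadjusted p under 0.05, against 11.5% of all genes. *Dusp29*, a dual specificity phosphatase whose gene lies 2.32 kb from that of *Kat6b* on the other strand, rose from 0.0435 to 0.206 CPM in wild-type to 0.948 to 1.62 CPM in transgenic embryos, with 1 to 4 counts in each wild-type and 23 to 37 in each transgenic embryo. Its log2 fold change was 3.34 ± 0.51 SE (FDR = 0.00981). The flanking sequence that the paper gives for the transgene on this side covers nearly all of *Dusp29* as annotated. Counts from transgene copies of *Dusp29* and from its own locus cannot be told apart. *Adk*, 31.6 kb away on the other side and beyond that flanking sequence, had a log2 fold change of 0.05 ± 0.04 SE.

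Another 3 genes that rose lie on chromosome 8, the chromosome of *Kat6a*, and were singled out after their values were seen. *Hgsnat*, a lysosomal acetyltransferase, stood at 19.9, 23.3, 21.5 and 19.2 CPM in wild-type and 29.4, 29.7, 27.1 and 25.5 CPM in transgenic embryos, without overlap (log2 fold change 0.43 ± 0.07 SE, FDR = 0.0153). *Tti2*, a partner of the TELO2 chaperone of large kinases, stood at 20.4, 21.4, 19.4 and 19.02 against 26.4, 23.3, 26.9 and 24.3 CPM, also without overlap (0.35 ± 0.07 SE, FDR = 0.0298). *Kbtbd11*, a Kelch and BTB domain protein, stood at 58.8, 56.7, 49.5 and 55.1 against 64.1, 65.6, 74.9 and 71.4 CPM (0.33 ± 0.06 SE, FDR = 0.0153). Relative to *Kat6a* they lie at 3.06, 8.26 and -8.32 Mb. Of 79 tested genes within 10 Mb of *Kat6a* 3 were called (3.8%, against 0.14% of all genes). The 3 are these same genes, singled out by their values, so their share is not a test. Of the 79 genes 19 had an unadjusted p under 0.05 (24.1%, against 11.5% of all genes). Exons on the opposite strand cover 24.8% of the exon bases of *Kbtbd11* and 13.01% of those of *Tti2*.

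The last 2 genes that rose were *Masp2* and *Sts*. *Masp2*, a serine protease of the lectin pathway of complement, stood at 1.35, 1.44, 2.41 and 2.88 CPM in wild-type and 4.01, 3.97, 4.86 and 4.28 CPM in transgenic embryos (log2 fold change 1.06 ± 0.21 SE, FDR = 0.0423), from 26 to 54 and 93 to 118 counts. The wild-type embryos of litters 2597 and 2598 were above those of litters 801 and 803, and exons on the opposite strand cover 60.3% of its exon bases. *Sts*, steroid sulfatase, which the annotation places on the X chromosome, stood at 10.1, 11.5, 8.35 and 7.55 CPM against 15.2, 11.0, 13.9 and 10.3 CPM (0.46 ± 0.09 SE, FDR = 0.0298). In both genotypes its males were above its females, and the groups overlapped.

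**Figure D3:**
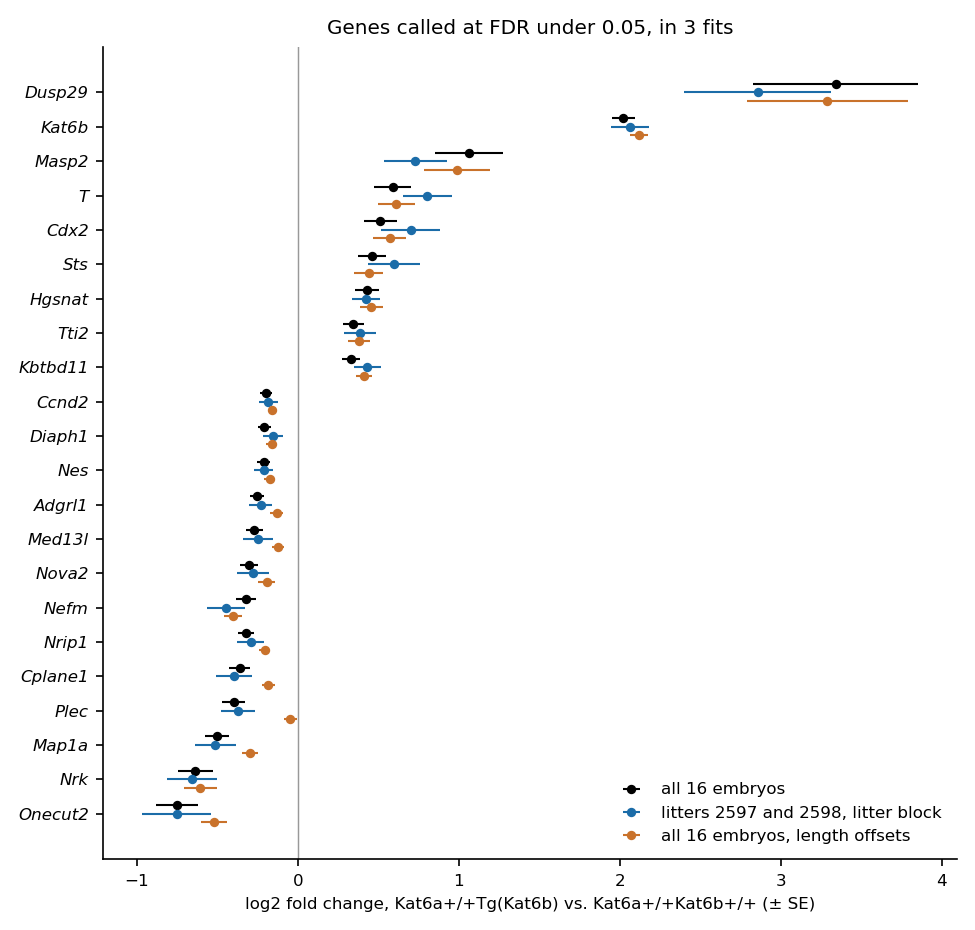
Log2 fold change ± SE of the 22 called genes (x axis) by gene (y axis) in the fit of all 16 embryos, in the 6 embryos of litters 2597 and 2598 with litter as a block, and in the fit of all 16 embryos with gene-length offsets. All 22 keep their direction in the 3 fits, and *Plec* moves from -0.40 to -0.05 with length offsets.

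Litters 2597 and 2598 hold both genotypes, which allows a comparison free of differences between litters, at the cost of having 2 wild-type embryos. Both of these are female, whereas transgenic replicates 1 and 3 are male, so genotype and sex are partly mixed in it. With litter as a block over these 6 embryos, 1 of 15591 genes was called (0.00641%), *Kat6b* with a log2 fold change of 2.06 ± 0.12 SE (FDR = 0.00208), and 489 had an unadjusted p under 0.05 (3.14%). With sex as a further term, on 2 residual degrees of freedom, 1 gene was called and 255 had an unadjusted p under 0.05. With litter alone as a block all 22 genes kept their direction and had an unadjusted p under 0.05, but the same embryos had entered the first fit, and apart from *Kat6b* the FDR was 1.00 for each. Every transgenic embryo lay on the same side of the wild-type embryo of its own litter for all 22 genes, which held for 25.3% of all tested genes. For *T* the log2 fold change within litters was 0.81 ± 0.15 SE and for *Cdx2* 0.70 ± 0.18 SE, both above the values of the fit of 16 embryos.

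Sex was matched in 2 of the littermate pairs. The female of litter 2597 with the transgene exceeded her wild-type sister by 0.59 for *T*, 0.81 for *Cdx2* and 0.46 for *Hgsnat* on the log2 scale, and the female of litter 2598 by 1.06, 0.77 and 0.40. For *Nes* the same pairs differed by -0.20 and -0.21, for *Map1a* by -0.52 and -0.39 and for *Ccnd2* by -0.18 and -0.16. All 22 genes had the direction of the main comparison in both pairs. These 4 embryos had entered the fit that chose the 22 genes, so agreement in direction and in calls was favoured beforehand. A fit of these 4 females with litter as a block called 48 of 15321 genes (0.313%), 10 higher and 38 lower, with 13 of the 22 among them, on 1 residual degree of freedom. The 38 lower genes had a median length of 12389 bases, against 3116 over all tested genes. Without transgenic replicate 1 the comparison within litters called 15 genes, and without transgenic replicate 2 it called 5.

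Gene length moved with the genotype comparison, most of all in 1 library, and its part in the calls was examined with length offsets. Among 10600 genes with a mean of at least 3 log2 CPM, the median log2 deviation of transgenic replicate 1 from the mean of the 8 embryos went from 0.18 for genes of up to 1 kb to -0.28 for genes over 8 kb. Its slope was -0.117 log2 units per doubling of length, against -0.0245 to 0.0387 in the other transgenic and 0.00419 to 0.0467 in the wild-type embryos. An exact permutation test between the slopes of the genotypes gave p = 0.371 (two-sided), and without replicate 1 the transgenic mean was 0.0119 against 0.0202 in the wild type. In the genotype comparison the median log2 fold change was 0.02 for genes of up to 1 kb and -0.16 for the 782 genes over 8 kb, where 436 had an unadjusted p under 0.05 and were lower and 3 were higher. The 13 genes that fell had a median length of 8188 bases and the 9 that rose one of 3219.

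When a smooth trend in length was taken out of every library as an offset, the median log2 fold change was within 0.01 of 0 in each length class and 38 genes were called (0.242%), 21 higher and 17 lower. Long genes stayed frequent among these calls: of the 782 genes over 8 kb, 10 were called higher and 10 lower. Median length was 7826 bases for genes called higher and 8300 for those called lower, against 3116 over all tested genes. Of the 22 genes 17 were still called. The 5 that were not, *Plec*, *Cplane1*, *Nova2*, *Med13l* and *Adgrl1*, are all over 8 kb long and had all fallen, with FDR from 0.0649 for *Cplane1* to 0.783 for *Plec*. *Onecut2* (-0.52, FDR = 0.00276), *Map1a* (-0.30, FDR = 0.0031) and *Nrip1* (-0.21, FDR = 0.0055), also over 8 kb, stayed lower. *Nefm*, a gene of 3230 bases, stood at -0.40 (FDR = 0.00133), *T* at 0.61 (FDR = 0.0196) and *Cdx2* at 0.57 (FDR = 0.00995). The 21 genes called in this fit alone included *Camta1*, a calmodulin-binding transcription activator, at 0.32, *Synj2bp*, a mitochondrial outer membrane protein, at 0.33 and *Knl1*, a kinetochore scaffold, at 0.22, which had been at 0.13, 0.11 and -0.05 without the offsets. The Y-linked genes *Kdm5d* and *Eif2s3y* were also called, with fitted values of 0.84 and 0.78 that the CPM of the males do not show. *Kdm5d* stood at 55.6 and 58.8 CPM in wild-type and 57.4 and 64.4 CPM in transgenic males, and *Eif2s3y* at 42.7 and 51.3 against 47.8 and 36.5 CPM. Without transgenic replicate 1 the fit with offsets called 8 genes, and 13 and 67 without wild-type replicates 1 and 4.

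**Figure D4:**
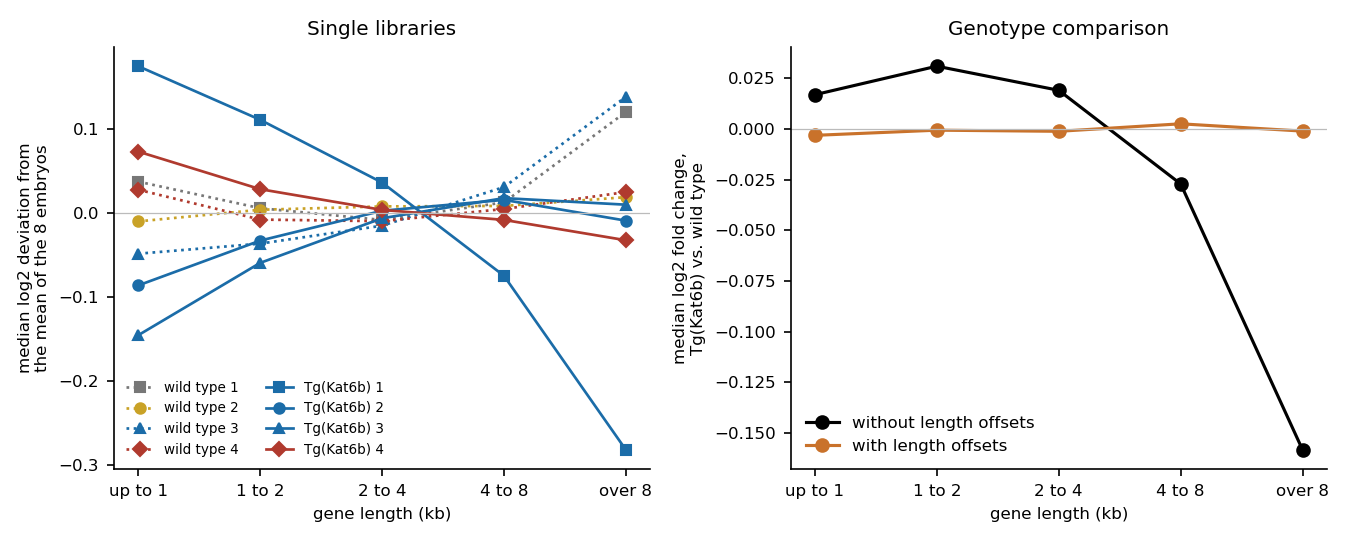
Left, median log2 deviation of each library from the mean of the 8 embryos (y axis) by class of gene length (x axis, kb), with solid lines for transgenic and dotted lines for wild-type embryos and colour for litter (grey 801, yellow 803, blue 2597, red 2598). Right, median log2 fold change in the same classes without and with length offsets, which goes from 0.02 to -0.16 without them.

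The same transgene was present in embryos without KAT6A, which are not among the 8 embryos compared above but entered the same fit. The 2 comparisons share its surrogate variables and its estimate of the spread, so they are not independent. Without KAT6A, *Kat6a-/-Tg(Kat6b)* differed from *Kat6a-/-Kat6b+/+* embryos in 1119 genes (7.14%). These groups came from different litters, 483 and 498 against 801 and 803, so litter and transgene cannot be told apart. Of the 21 called genes other than *Kat6b*, 17 had the same direction there, as had 53.7% of all genes, and 11 were called in it, none of them in the opposite direction. With length offsets, where 8.18% of all genes were called, 13 of the 21 were called in the same and 2 in the opposite direction, *Kbtbd11* at -0.18 (FDR = 0.0275) and *Hgsnat* at -0.23 (FDR = 0.0349). The 11 were *Map1a*, *Plec*, *Nrip1*, *Nefm*, *Nova2*, *Nes*, *Ccnd2*, *Tti2*, *Sts*, *Cdx2* and *Dusp29*. With *Kat6b* counted, 12 of the 22 genes were called in embryos without KAT6A. That number was 6 without surrogate variables, where 614 of 15679 genes were called, and 8 with 1 surrogate variable, where 606 were. *Cdx2* had a log2 fold change of 0.66 (FDR = 0.000829), *Nefm* of -0.48 (FDR = 9.58e-05) and *Ccnd2* of -0.27 (FDR = 0.000235), whereas *T* was not called at 0.13 (FDR = 0.514). *Kat6b* had a log2 fold change of 2.05 there, and the difference from its value with KAT6A was 0.03 (FDR = 0.927).

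An interaction test compared the log2 fold change with the transgene between embryos with and without KAT6A. It called 24 genes (0.153%), 16 with a higher and 8 with a lower log2 fold change in embryos without KAT6A. The groups without KAT6A shared no litter, so litter and transgene cannot be told apart in the interaction. Of the 22 genes, 3 were among the 24 called for the interaction. The 22 were chosen for a difference between transgenic and wild-type embryos that is also part of the interaction, so overlap was favoured beforehand. *Nrk* fell by 0.64 with KAT6A and stood at 0.32 (FDR = 0.0667) without it, an interaction of 0.96 ± 0.15 SE (FDR = 0.00757). *Hgsnat* stood at 0.43 and -0.20, an interaction of -0.63 (FDR = 0.00757), and *Kbtbd11* at 0.33 and -0.16, an interaction of -0.49 (FDR = 0.00757). *Hgsnat* ran from 35.0 to 39.2 CPM in *Kat6a-/-Kat6b+/+* and from 29.3 to 36.9 CPM in *Kat6a-/-Tg(Kat6b)* embryos, both above the wild type. *Masp2* differed in sign as well, at 1.06 and -0.43, and its interaction of -1.49 missed the threshold (FDR = 0.0528), but passed it with length offsets at -1.44 (FDR = 0.036, where 0.223% of all genes were called).

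**Figure D5:**
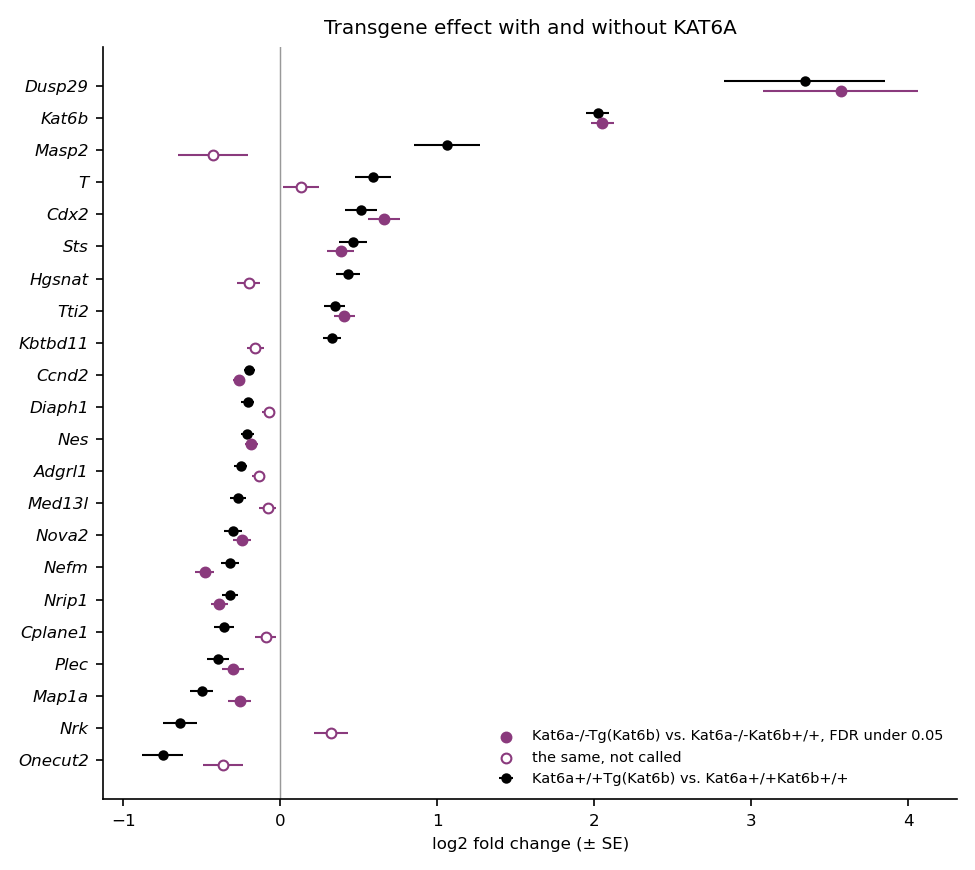
Log2 fold change ± SE (x axis) of the 22 called genes (y axis) for the transgene in embryos with KAT6A (black) and without it (purple, filled where the FDR was under 0.05). *Cdx2* and *Ccnd2* lie close together in both, whereas *Nrk*, *Hgsnat*, *Kbtbd11* and *Masp2* lie on opposite sides of 0. In embryos without KAT6A, litter and transgene cannot be told apart.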

How the data were processed

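Total RNA of single whole E9.5 embryos was made into libraries with a TruSeq RNA kit that does not keep strand. The authors aligned reads to the mouse genome (mm39) with Rsubread and deposited raw counts per gene with gene lengths. featureCounts is named in the submitters' notes, with settings not given in the sources used here. Counts of 26411 genes in 16 embryos were analysed as deposited. Genes were kept by filterByExpr (15679), libraries were scaled by TMM, and edgeR 4.0.16 (R 4.3.3) quasi-likelihood tests with 2 surrogate variables from sva 3.50.0 gave log2 fold changes, with SE taken as the log2 fold change over the root of F, and Benjamini-Hochberg FDR over all tested genes. CPM and RPKM are TMM-scaled. Pairs of littermates were compared on log2(CPM + 0.5). Length offsets were lowess curves (span 0.3) of each library's log2 CPM deviation on log2 gene length. Comparisons within litters used litter as a block. Positions are those of GENCODE on GRCm39, matched by symbol for 25282 genes. Shares of exon bases covered on the opposite strand are over all GENCODE exons of a gene, which differ from the counted exons. Alternatives were DESeq2 1.42.0, limma-voom 3.58.1, other filters, covariates and subsets of embryos. The count fits were tested on simulated data.

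Replicates are separate embryos, and p-values measure the spread between them. The main fit held no term for litter, so its p-values take littermates as independent and do not measure the spread between litters. Genes named are *Kat6a* and *Kat6b*, genes within 1 Mb of *Kat6b*, all genes called in the comparison of genotypes, the 15 with the smallest p with length offsets, called members and the extremes of each list, sex genes and the 10 with the smallest interaction p. The genes and lists were chosen with earlier results of these data known. The brachyury gene of the lists is named *T* in the files.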

Additional observations from a re-analysis of the deposited data

Results flagged for a closer look

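One embryo stood apart from its group for a gene described above. *Kat6a* was at 138 CPM in transgenic replicate 1, while the other 3 transgenic embryos lay between 189 and 196 CPM (gap over range 0.87, above Dixon's critical value for 4 samples). Chance gives such an embryo in about 1 of 20 groups. The same library had the steepest fall with gene length, and *Kat6a* has a length of 9116 bases. With length offsets the log2 fold change of *Kat6a* between the genotypes was -0.06 (FDR = 0.646). The part of gene length in the value of this embryo was not tested.

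The transgene's difference was not the same with and without KAT6A, by the interaction test, for 10 genes with the smallest p. Values are log2 differences of the effect without KAT6A minus the effect with it. *Wipi1*, an autophagy protein, had -6.46 (FDR = 6.35e-06). It was at 8.62 and 8.28 CPM in the wild-type embryos of litters 801 and 803 and at 18.8 and 18.9 CPM in those of litters 2597 and 2598, at 16.8 to 18.4 CPM in transgenic embryos, and at most 0.185 CPM in *Kat6a-/-Tg(Kat6b)* embryos. *H1f5*, a linker histone, had -3.39 (FDR = 0.00306), at 0.313 to 0.663 CPM in wild-type and 0.384 to 0.95 CPM in transgenic embryos. *Steap2*, a metalloreductase, had 0.76 (FDR = 0.00209), *Rbpj*, the DNA-binding partner of Notch, 0.43 (FDR = 0.00209), and the imprinted growth factor gene *Igf2* 0.33 (FDR = 0.00209). The mitochondrial gene *COX3* had -0.40 (FDR = 0.0022), which was -0.21 and not called with length offsets (FDR = 0.375), and *Gtf2a1*, a general transcription factor, -0.50 (FDR = 0.00757). None of these 7 was called in embryos with KAT6A. *Nrk* had 0.96, *Kbtbd11* -0.49 and *Hgsnat* -0.63, as given above. The groups without KAT6A shared no litter, so litter and transgene cannot be told apart in the interaction.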

How the results depend on the processing

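The log2 fold change of *Kat6b* stayed called in every alternative, from 1.96 to 2.16. The number of called genes, 22, was 219 with DESeq2, where 4864 genes had no adjusted p, 315 without a filter on low counts (4 surrogate variables), 5 with none or 1 surrogate variable, 5 with sex in their place, 2 with the 8 embryos only and 3 with sex added to these. It was 1 with litter as a block over 12 or 6 embryos, 48 in 4 females, 38 with length offsets and 7 with these and no surrogate variable. Chosen after seeing the data, filters with 2 surrogate variables gave 13 genes with no filter and 37 with at least 10 counts in every embryo. With replicate number as a block it was 12. Wild-type and transgenic embryos numbered 3 or 4 shared a litter, and those numbered 1 or 2 did not. Deviations of same-numbered embryos correlated at 0.0158, 0.0157, 0.24 and 0.0668, and the numbers were not taken as pairs. Leaving out 1 embryo gave 1 to 108 genes, within litters 1 to 15, with length offsets 8 to 67 and for the interaction 18 to 81. Within litters litter 2597 alone gave 2. With length offsets and no surrogate variable 7 genes were called. *Knl1*, not called at -0.05, reversed to 0.0032 with at least 10 counts in every embryo, 0.046 in 4 females and 0.22 and 0.20 with length offsets with and without surrogate variables, and leaving out 1 embryo gave -0.11 to 0.044 (reversed without wild-type replicate 3, at 0.01, and transgenic replicate 1). The cause was not tested. All 22 called genes kept their direction in every alternative in which they were tested. Of the values of single genes over all alternatives, 356 kept their side of the threshold, 309 lost the call, 3 gained it and 6 reversed. Depth limits the low genes: *Dusp29* had at most 4 counts in a wild-type embryo.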
